A study of Mus musculus with 6 samples.

Results

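Enteroendocrine cells of the mouse jejunum are described here as the cells that carried the most transcript of the chromogranins Chga and Chgb. A cell's score S was its deposited value minus the gene's 5th percentile among cells of the same amplification pool, on the authors' log2 scale, and a cell was a member when its mean S over both genes was at least 3. The rule found 93 of 2043 cells. In the anterior jejunum these were 43 of 568 cells of mouse 1, 9 of 198 of mouse 2 and 9 of 262 of mouse 3. In the posterior jejunum they were 22 of 511, 8 of 280 and 2 of 224 cells. Members are called chromogranin-gated cells below, and all remaining cells of the same sample are called other cells.

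The series profiled single epithelial cells of the small intestine by MARS-seq, a plate-based method that counts unique molecular identifiers (UMIs), so that copies of one molecule count once. Its 6 samples were the anterior and the posterior jejunum of 3 mice, each 120 days old and on a mixed CD-1:C57BL/6 background. Living EpCAM+ DAPI- cells were sorted from a mixture in which villus and crypt cells took equal parts. The series is titled for ID2, but the sample labels give no genotype, so the anterior and posterior jejunum are the only groups, with mouse as the replicate and both regions taken from each mouse. Each deposited table covered 1 region and held 6839 genes in the anterior and 5831 in the posterior jejunum, and a gene outside a table has no value there.

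Enteroendocrine cells are scattered hormone-producing cells of the gut epithelium that sense the lumen and release peptides or amines towards blood and nerves. Chromogranins are acidic proteins that pack hormones into dense core granules, and granins are cut, like the prohormones beside them, by convertases and carboxypeptidases. Enterochromaffin cells make serotonin from tryptophan through tryptophan hydroxylase 1 (Tph1) and often substance P from Tac1, whereas other enteroendocrine cells make secretin (Sct), cholecystokinin (Cck), glucose-dependent insulinotropic peptide (Gip), neurotensin (Nts), peptide YY (Pyy), somatostatin (Sst) or ghrelin (Ghrl). Their fate is driven by basic helix-loop-helix (bHLH) factors that bind E-boxes, and ID proteins such as ID2 hold back those factors by pairing with their partners, the E proteins.

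Because bHLH factors bind E-boxes and ID proteins act on them, the 250 bases before the RefSeq start of 4 genes are shown for the pair that chose the cells and for the peptide genes Reg4 and Sct, which were high in those cells in both regions. The sequences are from RefSeq on GRCm38.p6, 5′ to 3′ on the strand of the gene, and capitals mark every E-box (CANNTG, which reads the same on both strands). The windows are chr12:102554691-102554940 on the plus strand for Chga, chr2:132781392-132781641 on the plus strand for Chgb, chr3:98221906-98222155 on the plus strand for Reg4 and chr7:141279134-141279383 on the minus strand for Sct.
Chga: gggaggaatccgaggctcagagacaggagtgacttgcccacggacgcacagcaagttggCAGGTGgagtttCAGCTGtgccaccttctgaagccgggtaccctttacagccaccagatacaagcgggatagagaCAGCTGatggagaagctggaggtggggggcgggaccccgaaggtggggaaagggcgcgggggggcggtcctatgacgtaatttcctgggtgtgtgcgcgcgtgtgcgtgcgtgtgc
Chgb: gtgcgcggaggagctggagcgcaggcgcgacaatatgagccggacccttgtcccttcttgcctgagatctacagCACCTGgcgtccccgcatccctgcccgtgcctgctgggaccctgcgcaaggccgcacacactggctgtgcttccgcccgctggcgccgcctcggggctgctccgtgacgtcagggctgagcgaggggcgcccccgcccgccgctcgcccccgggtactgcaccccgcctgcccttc
Reg4: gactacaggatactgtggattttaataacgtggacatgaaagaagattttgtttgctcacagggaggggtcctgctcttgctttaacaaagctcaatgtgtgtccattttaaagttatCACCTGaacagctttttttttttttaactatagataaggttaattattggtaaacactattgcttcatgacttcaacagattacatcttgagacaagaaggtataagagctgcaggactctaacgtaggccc
Sct: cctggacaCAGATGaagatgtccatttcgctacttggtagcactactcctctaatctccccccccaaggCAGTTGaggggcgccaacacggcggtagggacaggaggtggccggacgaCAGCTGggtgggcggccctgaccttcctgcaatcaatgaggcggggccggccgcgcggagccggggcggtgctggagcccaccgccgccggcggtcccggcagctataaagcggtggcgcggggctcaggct
Chga held 3 E-boxes, whose first bases lay 191, 179 and 116 bases before the start, and Sct held 3, at 242, 181 and 132. Chgb held 1 at 176 and Reg4 held 1 at 132. Tph1, whose windows are not printed here, held 0 E-boxes before each of its 2 RefSeq starts. An E-box was present in 66.2% of 32851 promoters of this length, so its presence sets none of these genes apart. The cyclic AMP response element TGACGTCA, present in 1.55% of those promoters, lay 72 bases before the start of Chgb, and its shorter form TGACG, found on either strand in 17.8% and contained in the longer one, lay 44 bases before the start of Chga. The letters TATAAA, searched on the gene's strand and present in 7.59%, lay 28 bases before the start of Sct. These matches describe letters and not bound sites. In GENCODE M21 on GRCm38, Chga (ENSMUSG00000021194) spans chr12:102554969-102565028, Chgb (ENSMUSG00000027350) chr2:132781278-132795079, Reg4 (ENSMUSG00000027876) chr3:98222156-98236748, Sct (ENSMUSG00000038580) chr7:141278330-141279133 and Tph1 (ENSMUSG00000040046) chr7:46644641-46672537.

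Members were chosen by their Chga and Chgb values, so the values of this pair are given as a description. Levels are means over cells of UMIs per 10000 UMIs of the cell (CP10K), and are compared here for 1 gene at a time. In the anterior jejunum the Chga level of chromogranin-gated cells was 116, 114 and 131 CP10K in mice 1, 2 and 3, against 0.981, 0.411 and 0.654 in other cells. The Chgb level was 272, 279 and 259 CP10K, against 3.02, 1.72 and 1.47. In the posterior jejunum Chga stood at 179, 145 and 169 CP10K and Chgb at 349, 417 and 468, against at most 0.646 and 1.37 in other cells. Single cells varied far more than these means. The median Chga count per member ran from 9 to 75 UMIs over the 6 samples, with some members at 0, and the highest member had 525.

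**Figure D1:**
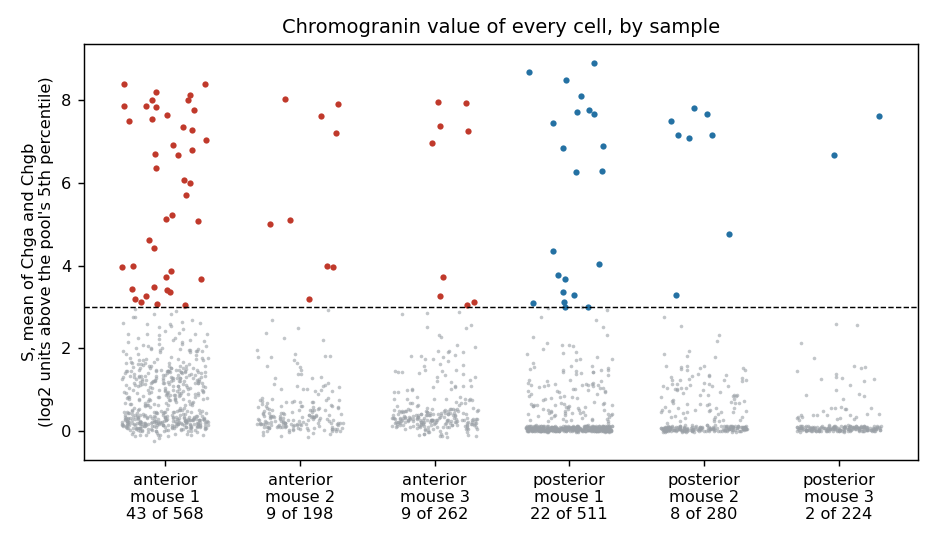
Mean S of Chga and Chgb (log2 units above the pool's 5th percentile, vertical axis) for every cell of the 6 samples, 1 point per cell, with the dashed line at the threshold of 3. Most members lie in a cloud above 5, and a thin band of cells lies on both sides of the line.

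Members fell into a high and a sparse part. Over both regions 57 members had a mean S of at least 5, 7 had 4 to 5 and 29 had 3 to 4, while 74 cells with 2 to 3 stayed outside. In the anterior jejunum the 37 members above 5 had a median of 60 Chga and 150 Chgb UMIs, and 31 of them also reached 50 CP10K for a hormone gene or Tph1. The 20 members between 3 and 4 had a median of 1.5 Chga and 4 Chgb UMIs, and 7 of them had at most 2 UMIs of either gene. Of these 20, 8 reached 50 CP10K for a hormone gene or Tph1, as did 24 of the 55 anterior cells outside with 2 to 3. At least 3 Tph1 UMIs were found in 1 of these 20 members and in 5 of those 55 cells. The 9 posterior members between 3 and 4 had a median of 0 Chga and 10 Chgb UMIs. The name enteroendocrine therefore rests on many molecules in the high part and on few in the sparse part. The 3 anterior members nearest to the line had S of 3.041, 3.058 and 3.077 with 2, 1 and 2 Chga and 4, 1 and 3 Chgb UMIs. The nearest anterior cells outside had 2.997, 2.955 and 2.935 with 2, 0 and 2 Chga and 1, 3 and 63 Chgb UMIs. The nearest posterior members had 3.007, 3.012 and 3.101 with 8, 54 and 59 Chgb UMIs and no Chga. The nearest posterior cells outside had 2.995, 2.967 and 2.932 with 1, 5 and 10 Chgb UMIs, and 1 of them had 1 Chga UMI.

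Cell depth differed in both directions. Members had median depths of 2480, 5866 and 3900 UMIs in anterior mice 1, 2 and 3 and of 1847.5, 3812 and 4538.5 UMIs in the posterior ones, against 3154, 9062, 3463, 2807, 3374.5 and 7583 in other cells. It was lower in members in 4 of 6 samples, with a mean log2 ratio of -0.328 ± 0.41 (SD, n = 6; exact two-sided sign-flip permutation p = 0.15625). S rests on values divided by a cell's size factor, so shallow cells could pass with few UMIs. Median depth was 1570 anterior and 1393 posterior UMIs in members with S of 3 to 4, against 3624 and 3436.5 with at least 5. The depth test thus cannot be told apart from the rule that chose the cells. At 1000 UMIs per cell, members differed from other cells by 16.2 ± 37 detected genes (SD, n = 6; exact sign-flip permutation p = 0.375), with 13 members left out for having fewer UMIs. Goblet and enterocyte markers were present in members, at lower summed levels than in other cells of the same sample. The 12 goblet genes in the tables summed to 509.7, 215.3 and 244.9 CP10K in anterior members against 1551, 888.7 and 622.1 in other cells, and to 228.4, 142.3 and 212.3 against 1734, 401.6 and 639.5 in the posterior samples. The 13 enterocyte genes summed to 135.1 to 631.5 CP10K in members and 224.3 to 1042 in other cells. Of the genes on the goblet list, Atoh1 had 0 UMIs in all anterior members and Spdef had 0 in all posterior members. The tuft genes summed to at most 0.4325 CP10K in members. Transcripts of goblet and enterocyte marker genes were thus counted in these wells at a lower summed level than in other cells. Their source and their part in the results were not tested.

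Hormone genes separated the members from other cells to very different extents. A cell is called high for a gene here with at least 3 UMIs and at least 10 CP10K, since single UMIs of hormone genes were widespread: among 967 anterior other cells, 58.01% had at least 1 UMI of Gip, 48.81% of Sct, 40.02% of Sst and 35.68% of Cck. Tph1 and Tac1 were the cleanest. Of 61 anterior members 25 (40.98%, 95% Wilson interval 29.54 to 53.5) were high for Tph1, against 4 of 967 other cells (0.4137%). For Tac1 14 members were high (22.95%) against 0 of 967, which allows a share of up to 0.31%. After thinning each cell to 1000 UMIs, at least 1 Tph1 UMI was found in 47.17% of members and 2.635% of other cells, and at least 1 Tac1 UMI in 26.42% and 0.6873%. Intervals and limits of this kind cover counting error only.

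Sct was the most widespread hormone gene of the members in both regions. In the anterior jejunum 40 members were high for it (65.57%) against 82 other cells (8.48%), and in the posterior jejunum 25 of 32 (78.12%) against 100 of 983 (10.17%). Reg4, which encodes a secreted lectin, was high in 34 anterior members (55.74%) against 43 other cells (4.447%), and in 12 posterior members (37.5%) against 23 other cells (2.34%). Gip was high in 25 anterior members (40.98%), but 273 other cells (28.23%) were high as well, so this threshold separated the classes little for Gip. Sst behaved alike, with 16.39% of members and 9.514% of other cells. At least 1 Sst UMI in cells thinned to 1000 was found in 22.64% of members and 21.88% of other cells. Posterior members were high for Cck in 6 cells (18.75%) and for Pyy in 5 (15.62%), against 6 and 9 of 983 other cells.

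A stricter level of 50 CP10K showed which hormone-rich cells the chromogranin rule reached. In the anterior jejunum members made up all 10 cells above it for Tph1, all 4 for Tac1, 31 of 34 for Reg4 and 35 of 55 for Sct. They made up only 6 of 21 for Cck, 6 of 56 for Gip, 2 of 25 for Sst, 2 of 9 for Nts and 0 of 7 for Ghrl, where 0 of 61 members allows a share of up to 4.92%. Of the 50 Gip-rich cells outside, 44 came from mouse 1. In the posterior jejunum members made up 21 of 46 for Sct, 9 of 13 for Reg4, 5 of 9 for Pyy, 3 of 6 for Cck, 3 of 14 for Gip and 1 of 7 for Nts. At 200 CP10K members still held only 6 of 15 Cck-rich, 4 of 18 Gip-rich and 1 of 6 Sst-rich anterior cells. The Cck-rich cells left outside at that level had a median of 0 Chga but 16 Chgb UMIs. The threshold on the chromogranins thus took in nearly all anterior cells rich in Tph1, Tac1 or Reg4, and fewer of those rich in Cck, Gip, Sst or Ghrl.

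**Figure D2:**
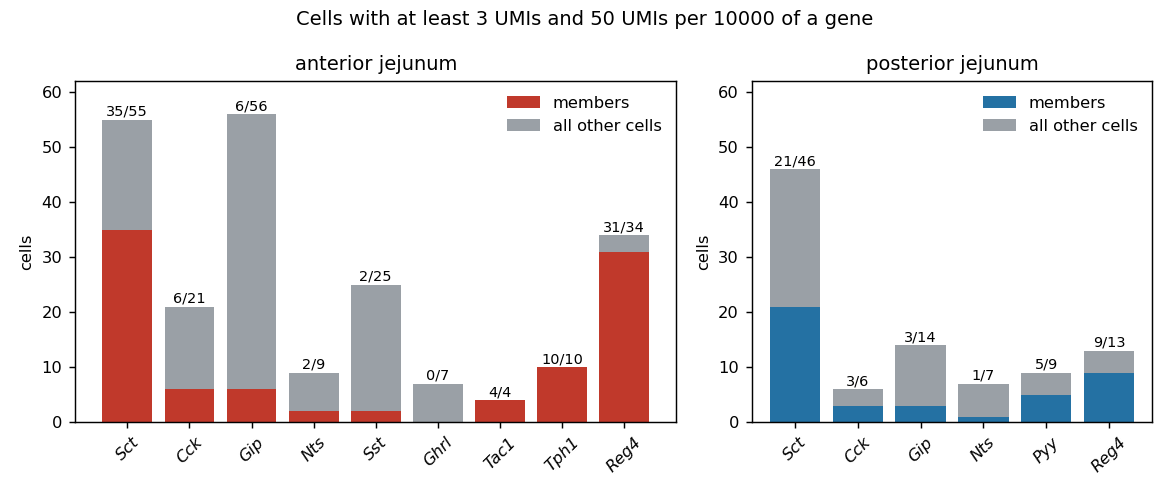
Number of cells (vertical axis) with at least 3 UMIs and 50 CP10K of each gene (horizontal axis), split into chromogranin-gated members and other cells, by region. Anterior Tph1, Tac1 and Reg4 bars are nearly all members and anterior Gip, Sst and Ghrl bars mostly other cells, and posterior members hold 9 of 13 Reg4-rich cells.

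Within the members, combinations of hormone genes were frequent in the anterior jejunum, where the table held 8 of these genes (Sct, Cck, Gip, Nts, Sst, Ghrl, Tac1 and Tph1). At the 10 CP10K level 8 of 61 members were high for none, 10 for 1, 23 for 2 and 20 for 3 or more. At least 2 were high in 43 members (70.49%, 95% Wilson interval 58.11 to 80.44), in 33 of 43 cells of mouse 1 and in 5 of 9 of each other mouse. The posterior table held 5 (Sct, Cck, Gip, Nts and Pyy), and 4 of 32 members were high for none, 20 for 1, 5 for 2 and 3 for 3 or more. At least 2 were high in 8 members (25.0%, 13.25 to 42.11), in 7 of 22, 1 of 8 and 0 of 2 cells by mouse. The shares of the regions rest on different gene sets and are not compared. They also move with the threshold: 36.07% of anterior and 18.75% of posterior members had at least 2 genes at 50 CP10K. At a mean S of at least 4, they were 87.8% and 13.04% at the 10 CP10K level. No share of other cells with at least 2 of the genes is given beside these, so they are not read as particular to members. At the 10 CP10K level 273 anterior other cells were high for Gip. Of the 25 anterior members high for Gip, 24 came from mouse 1.

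The commonest anterior combination was Sct with Tph1, in 10 members at the lower level, followed by Sct, Gip, Tac1 and Tph1 in 5 and Sct, Tac1 and Tph1 in 4. The 5 with Gip all came from mouse 1, where other cells averaged 109 CP10K of Gip, and at 50 CP10K 0 members combined Gip with Tph1 or Tac1. At 50 CP10K Sct with Tph1 was seen in 9 members, Sct alone in 13, Sct with Cck in 5, Sct with Tac1 in 3 and Gip alone in 3, while 19 had none. All 6 Cck-rich anterior members were Sct-rich as well, 1 of them also Gip-rich, and none of them was Tph1-rich. In the posterior jejunum 17 members were rich in Sct alone, and the 3 Cck-rich members were all rich in Sct and Pyy, 1 of them also in Nts. Thus Sct was seen with Tph1 in some anterior members and with Cck in others, and with Cck and Pyy in 3 posterior members. At this level 35 of 61 anterior and 21 of 32 posterior members were Sct-rich. How far these pairs follow from the frequency of Sct alone was not tested.

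Peptide levels in the members were set by a few cells for some genes and shared by many for others. The single highest anterior member held 92.2% of the members' summed Sst level, 74.8% of Nts, 44.7% of Gip and 30.0% of Cck. It held only 8.87% of Tph1, 11.8% of Reg4 and 9.53% of Gpx3. Posterior Reg4 was less evenly spread, with 33.7% of its summed level in the highest member, 84% in the 5 highest and a median of 3.19 CP10K, against 74.1 CP10K in anterior members. An anterior cell of mouse 1 had 1921 Gip UMIs among 4507, and a cell of mouse 2 had 3348 among 8335. A cell of mouse 1 had 1379 Sst UMIs among 3014, and another had 1005 Sct and 748 Cck UMIs among 4279. In the posterior jejunum a cell of mouse 2 with 17102 UMIs had 4402 of Sct, 3609 of Pyy, 1369 of Nts and 732 of Cck. A cell of mouse 1 with 27933 UMIs had 4340 of Sct, 2992 of Pyy, 840 of Cck and 112 of Nts, all 4 hormone genes again in 1 well. Whether such wells held 2 cells was not tested.

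Anterior members are described next by their Reg4 level, a split that was chosen after the values were seen and carries no test. It follows the gate as well: 31 of the 37 members with a mean S of at least 5 reached 50 CP10K of Reg4, against 0 of 4 between 4 and 5 and 0 of 20 between 3 and 4. The 31 members with at least 50 CP10K of Reg4 all had at least 50 CP10K of Chga, with a median of 197 CP10K for Chga and 440 for Chgb, values that helped to choose them. Of these, 26 were high for Sct at 10 CP10K, 25 for Gpx3, 22 for Tph1, 15 for Afp, 12 for Tac1 and 11 for Gip, and none reached 50 CP10K of Cck. None of the other 30 members reached 50 CP10K of Chga, and their medians were 10.1 CP10K for Chga and 38.9 for Chgb. Of these, 14 were high for Sct, 14 for Gip, 3 for Tph1 and 2 for Tac1, while 6 reached 50 CP10K of Cck, 5 of Gip and 2 of Sst. The mean Sct level was 205 CP10K in the Reg4-rich members and 193 in the others, with medians of 147 and 16.4. Across the 61 cells Spearman's rho with Reg4 was 0.634 for Tph1, 0.62 for Gpx3 and 0.587 for Afp, as a description of cells that share libraries and differ in depth. The 9 Reg4-rich posterior members had a median of 251 CP10K of Chga, and none reached 50 CP10K of Cck, Pyy, Gip or Nts.

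**Figure D3:**
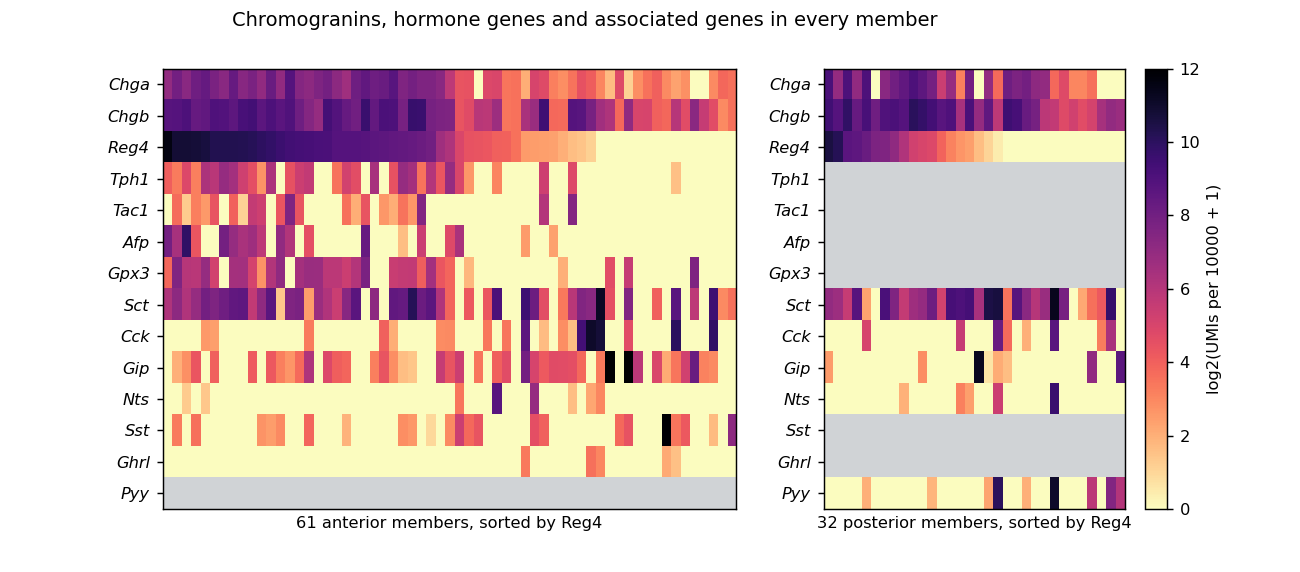
Levels of 14 genes (rows) in the 61 anterior and 32 posterior members (columns), each region sorted by Reg4 and coloured by log2(CP10K + 1), with grey for genes outside a region's table. Anterior cells with Reg4 also carry Chga, Tph1 and Gpx3, and most cells with much Cck, Gip or Sst lie at the other end.

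Across all genes, anterior members were compared with other cells of the same mouse. The level per class and sample was taken to log2(CP10K + 0.2), genes averaging at least 0.2 CP10K entered, and limma was fitted with sample as block and Benjamini-Hochberg adjustment (adjusted p under 0.05). That average ran over members and other cells, so a gene near 0 in other cells entered only where members were high. Tac1, Slc18a1 and Afp averaged under 0.2 CP10K in other cells, so their entry already leaned towards a rise. The list counts and medians below include such genes and are given as a description. Of 5531 genes tested, with Chga and Chgb set aside, 47 were higher (0.85%) and 121 lower (2.19%), and the median log2 difference over all genes was -0.353. Of the higher genes 46 were higher in every mouse, the exception being Cck, and 38 by over 2-fold in every mouse. Without mouse 1, which gave 43 of the 61 members, 25 genes were higher and 23 lower. The lower count was 32 without mouse 2 and 23 without mouse 3. limma found no spread of single genes beyond that tied to their level and gave all genes of 1 level the same error. The SE and adjusted p of a gene thus do not measure its own spread over the mice. Without that tie 26 genes were higher and 13 lower. Gip, Cck, Ghrl, Scg2, Ddc, Maoa and Id2 were among the calls lost without it.

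Reg4 was the gene with the largest rise. Its level was 426, 499 and 382 CP10K in anterior members of mice 1, 2 and 3 and 4.6, 1.81 and 2.69 in other cells, with no overlap. The log2 difference was 7.16 (SE 0.285, 143-fold; limma adjusted p = 1.41e-131). Sct followed among the hormones with 196, 211 and 204 CP10K against 13.7, 9.03 and 2.08, a log2 difference of 4.94 (SE 0.284, limma adjusted p = 1.3e-63). Both genes were near even over the 3 mice in members, unlike Gip and Cck.

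The serotonin and substance P genes rose in all 3 mice. Tph1, the rate-limiting enzyme of serotonin synthesis outside the brain, stood at 22.4, 19.2 and 25.6 CP10K in members against 0.368, 0.283 and 0.106 (log2 difference 5.68, SE 0.547, limma adjusted p = 3.09e-22). Tac1 stood at 14.3, 4.61 and 22.1 CP10K against 0.104, 0.0122 and 0.0719 (log2 difference 5.48, SE 0.652, limma adjusted p = 2.64e-14). Of 8 tested genes for amine synthesis and transport, 2 rose and 1 fell, with a median log2 difference of -0.518 against -0.353 for all genes. Those that rose were Slc18a1, the vesicular monoamine transporter VMAT1, at 4.1, 2.2 and 9.36 CP10K against 0.301, 0.0953 and 0.169, and Ddc, which makes serotonin from its precursor, at 6.82, 15.9 and 4.35 against 1.95, 2.07 and 2.34. The limma adjusted p was 6.87e-05 for Slc18a1 and 0.0255 for Ddc, which lost its call without mouse 1 (0.0849) or mouse 2 (0.297). Maoa, which breaks serotonin down, fell at 1.51, 5.33 and 0 CP10K against 4.84, 4.32 and 4.26 (limma adjusted p = 0.0411), but its level in mouse 2 lay above that of other cells and the call was lost without mouse 1 (0.119) or mouse 3 (0.794). The serotonin transporter Slc6a4 had a log2 difference of -1.22 (limma adjusted p = 0.409).

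The other peptide hormones did not rise evenly. Of 8 tested genes of the hormone list 5 rose and 1 fell, with a median log2 difference of 1.88. Tac1 among these entered the fit only through its level in members. Gip stood at 128, 449 and 0.855 CP10K in members against 109, 8.19 and 0.814 in other cells. Its log2 difference of 2.01 (SE 0.333, limma adjusted p = 5.79e-07) came from mouse 2: without it the value was 0.139 (adjusted p = 0.945), and with members of a mean S of at least 5 it was -2.88 (adjusted p = 2.61e-05). Cck stood at 111, 235 and 0 CP10K against 22, 13.5 and 0.255 (log2 difference 1.75, limma adjusted p = 0.00182). It lost its call without mouse 1 (1.46, adjusted p = 0.247) or mouse 2 (0.573, adjusted p = 0.795). Without the tie of spread to level neither Cck nor Gip passed (limma adjusted p = 0.301 and 0.269). Neither gene was high in members of mouse 3. Sst stood at 110, 8.19 and 16.1 CP10K against 12.9, 38.1 and 23.5, a log2 difference of 0.116 that did not pass the test (limma adjusted p = 0.921). With members of a mean S of at least 4 it fell by 3.98 (adjusted p = 9.23e-14). Ghrl was the one hormone gene that fell, at 0.501, 1.23 and 0 CP10K against 3.43, 2.81 and 1.93 (log2 difference -2.29, limma adjusted p = 0.045), and the call was lost without any 1 of the mice (adjusted p = 0.265, 0.0717 and 0.346). Its direction turned at a mean S of at least 2 (1.21) and against cells gated by Apoa1 and Fabp1 (0.331) or by Muc2 and Fcgbp (0.0295). The genes high in one part of the members were thus at or below the level of other cells in the remainder.

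All 4 tested granin and prohormone processing genes beyond the gating pair were higher, with a median log2 difference of 3.7 against -0.353 for all genes. The other genes of that list were not analysed here, so the list as a whole was not tested. Scg5, which encodes the chaperone 7B2 of a prohormone convertase, stood at 5.03, 6.94 and 8.35 CP10K against 0.304, 0.274 and 0.141 (log2 difference 3.98, SE 0.653, limma adjusted p = 3.98e-07). Pcsk1n, whose product proSAAS inhibits a convertase, stood at 10, 3.36 and 19.7 CP10K against 0.954, 0.0215 and 0.0675 (log2 difference 4.46, limma adjusted p = 8.78e-10). Cpe, the carboxypeptidase that trims cut prohormones, stood at 3.81, 6.21 and 3.95 CP10K against 0.871, 0.157 and 0.0318 (log2 difference 3.41, limma adjusted p = 0.000125). The Cpe call was lost without the sample as block (limma adjusted p = 0.0526). The granin Scg2 stood at 5.86, 14.1 and 0.103 CP10K against 1.21, 0.393 and 0 (log2 difference 2.43, limma adjusted p = 0.0324), and lost its call without mouse 1 (adjusted p = 0.25) or mouse 2 (0.676). The Scg2 call was also lost against cells gated by Muc2 and Fcgbp (limma adjusted p = 0.0917). With members of a mean S of at least 5 its log2 difference was -0.312 (limma adjusted p = 0.907). Scg2 thus followed Cck and Gip in being near 0 in members of mouse 3.

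Of 8 tested genes of dense core vesicles and exocytosis 2 rose, with a list median of -0.00134. Syt7, a calcium sensor of exocytosis, stood at 4.44, 6.48 and 7.58 CP10K against 0.877, 0.422 and 0.214 (log2 difference 3.25, limma adjusted p = 3.76e-05). The Syt7 call was lost against cells gated by Muc2 and Fcgbp (log2 difference 2.33, limma adjusted p = 0.0522). Complexin 2, Cplx2, which clamps vesicle fusion, had a log2 difference of 3.27 (limma adjusted p = 0.0026), lost without mouse 1 (adjusted p = 0.0847) or mouse 3 (0.134). The small GTPases Rab27a and Rab27b, used by many secretory cells, had log2 differences of -1.33 and -1.08 and did not pass. None of 30 tested genes of the endoplasmic reticulum secretory pathway passed in either direction, with a median of -0.176. Passing genes of these lists were thus limited to Syt7 and Cplx2, and neither kept its call in every alternative fit.

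Of 10 other tested genes known from endocrine cells 8 rose, with a median log2 difference of 3.64. Reg4, given above, had the largest rise of that list. Afp and Gpx3 are not on the list and are named only as top calls of this same contrast. Afp, alpha-fetoprotein, stood at 49.1, 24.2 and 26.6 CP10K against 0.415, 0.13 and 0.0392 (log2 difference 6.45, SE 0.534, limma adjusted p = 2.47e-30). Gpx3, a secreted glutathione peroxidase, stood at 30.1, 59.7 and 39.4 CP10K against 0.472, 0.359 and 0.451 (log2 difference 6.05, SE 0.477, limma adjusted p = 1.2e-33). Afp came from fewer cells, with a UMI in 19 of 61 members against 32 for Gpx3. Resp18, a protein of the regulated secretory pathway, rose by 4.4 on the log2 scale, Bex3 by 3.95, Bex2 by 3.61 and the amyloid precursor relative Aplp1 by 3.49, and Bex2 lost its call without mouse 1 (limma adjusted p = 0.0847). Keratin 7 (Krt7) stood at 12.5, 8.3 and 21.1 CP10K against 1.86, 0.625 and 0.46 (log2 difference 3.67, limma adjusted p = 9.4e-10). Reg4, Afp, Gpx3, Tph1, Tac1, Sct, Pcsk1n, Resp18, Scg5, Bex3, Fam183b, Krt7, Slc18a1 and Aplp1 passed in the same direction in all 15 alternative fits.

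**Figure D4:**
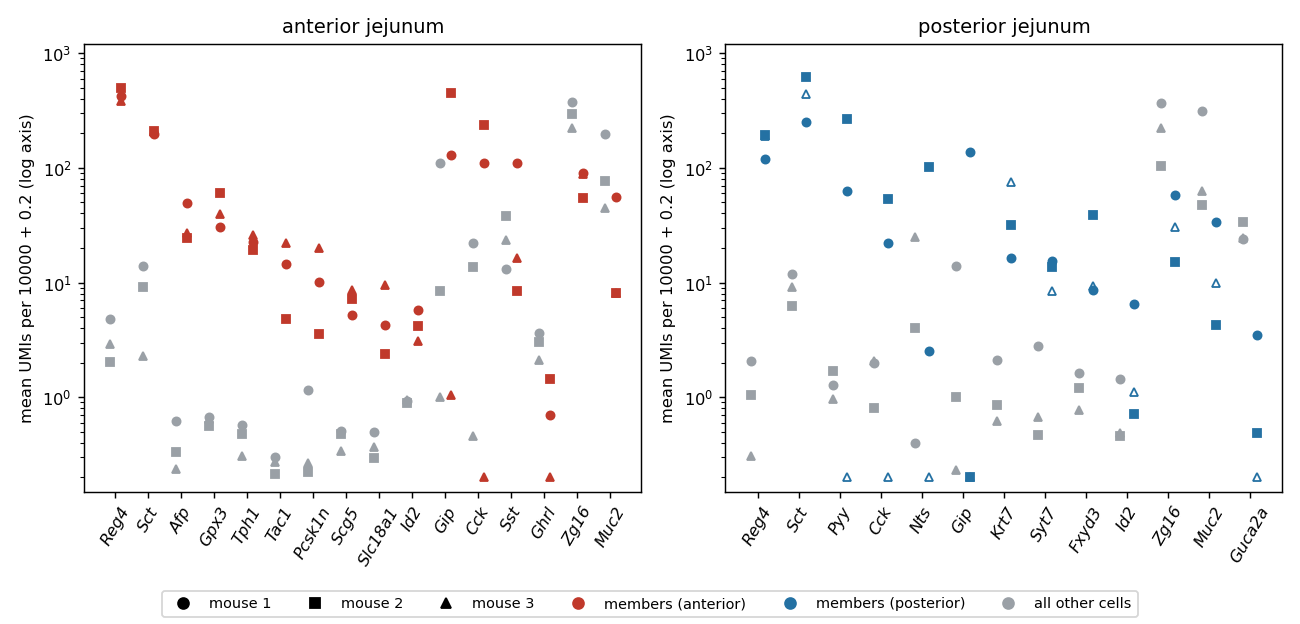
Mean level per mouse (CP10K + 0.2, log axis) of the genes the results turn on, in members and other cells of the anterior and posterior jejunum, with 1 symbol per mouse and open symbols for posterior mouse 3, whose 2 members were outside the fit. Reg4, Sct, Tph1 and Gpx3 members lie above other cells in every anterior mouse, whereas Gip and Sst overlap.

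ID proteins bear on the title of the series. Of 6 tested genes for ID, E and HES proteins 1 passed, Id2, and the list median was 0.846. Id2 stood at 5.54, 3.95 and 2.9 CP10K in anterior members against 0.719, 0.692 and 0.741 in other cells, with no overlap. The log2 difference was 2.19 (SE 0.628, 4.58-fold; limma adjusted p = 0.0315), and 26 of 61 members had a UMI. The call was lost without mouse 1 (1.97, adjusted p = 0.224), without mouse 2 (2.18, 0.0737) and against goblet-type cells (2.36, 0.082), with the difference itself nearly unmoved. It was also lost without the tie of spread to level (limma adjusted p = 0.126). Id1 and Id3 had log2 differences of 0.849 (adjusted p = 0.491) and 0.842 (0.469). In posterior members Id2 stood at 6.35 and 0.512 CP10K in mice 1 and 2 against 1.25 and 0.259 (log2 difference 1.40, SE 1.12, limma adjusted p = 0.762). Of the enteroendocrine transcription factors only Sox4 was in the tables, at 4.77, 1.52 and 0.309 CP10K against 0.758, 0.125 and 0.203 in the anterior jejunum (log2 difference 1.7, limma adjusted p = 0.258), and the other factors of that list were not analysed here.

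Some goblet and enterocyte genes were lower in members. Of 12 tested goblet genes 6 fell and none rose, with a median log2 difference of -1.49. The mucin Muc2 stood at 55.4, 7.94 and 7.9 CP10K against 197, 75.9 and 44.7 (log2 difference -2.51, limma adjusted p = 8.19e-16), Zg16 at 90.7, 54 and 87.5 against 372, 296 and 224, and the trefoil factor Tff3 at 218, 97.2 and 122 against 610, 367 and 270. Muc2, Zg16 and Tff3 lost their calls without the tie of spread to level (limma adjusted p = 0.0758, 0.192 and 0.282) and without the sample as block (0.163, 0.0751 and 0.165). Of 13 enterocyte genes 4 fell, namely lactase (Lct, log2 difference -2.59), Fabp2 (-1.72), Fabp1 (-1.37) and Apoa1 (-0.896), with a list median of -0.896. Apoa1 lost its call without any 1 of the mice (adjusted p = 0.0847, 0.17 and 0.365), Lct without mouse 2 (0.364), and Fabp1 and Fabp2 without mouse 3 (0.343 and 0.0538). Of 8 Paneth genes 1, Defa24, passed as lower, and reads of near-identical defensin copies may be split between them; it lost its call without mouse 1 (adjusted p = 0.0847) or mouse 2 (0.753). None of 8 cycling genes passed. Among all 121 lower genes 48 had 0 UMIs in the members of every mouse, and 46 had a mean under 1 CP10K in other cells.

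Other cells are a mixture, so members were also set against other cells with a mean S of at least 3 for Muc2 and Fcgbp (goblet-type, 878 cells over both regions) or for Apoa1 and Fabp1 (absorptive-type, 1117 cells, 417 of them in both sets). Against goblet-type cells 32 of 5295 genes were higher (0.604%) and 24 lower (0.453%). Against absorptive-type cells 55 of 5468 were higher (1.01%) and 122 lower (2.23%). Reg4, Sct and Tph1 rose against goblet-type cells by 6.81, 5.37 and 5.60 on the log2 scale, close to their values against all other cells. Fabp1 had a log2 difference of -0.242 there and did not pass (limma adjusted p = 0.745). The 3 endocrine genes thus passed against goblet-type cells as they did against the mixture.

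The posterior fit used mice 1 and 2, since mouse 3 had only 2 members, fewer than the minimum of 3. Of 4911 genes tested 10 were higher (0.204%) and 7 lower (0.143%), with a median log2 difference of -0.415. The fit had 1 residual degree of freedom, and limma again gave all genes of 1 level the same error. Its SE and adjusted p thus do not measure a gene's own spread over the mice. Reg4 stood at 119 and 194 CP10K in members of mice 1 and 2, and at 188 in the 2 members of mouse 3, against 1.86, 0.836 and 0.106 in other cells (log2 difference 6.70, SE 0.655, limma adjusted p = 4.26e-21). Sct stood at 250, 620 and 439 CP10K against 11.6, 5.98 and 8.85 (log2 difference 5.53, SE 0.607, adjusted p = 1.23e-16). Both were high in every posterior sample. With all 3 mice the counts of 4880 genes were 16 higher (0.328%) and 322 lower (6.6%), and a fit without mouse 1 or mouse 2 of those 3 gave 28 or 6 higher and 783 or 190 lower, so the lower count rested on mouse 3.

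Of 5 tested hormone genes 4 rose in posterior members, with a list median of 4.77. Pyy, released by distal enteroendocrine cells to slow the gut, stood at 62.7, 264 and 0 CP10K against 1.09, 1.51 and 0.774 (log2 difference 6.44, SE 0.66, limma adjusted p = 3.52e-19). Cck stood at 21.8, 53.5 and 0 CP10K against 1.79, 0.599 and 1.85 (log2 difference 4.77, adjusted p = 5.91e-08). Nts stood at 2.31, 101 and 0 CP10K against 0.201, 3.82 and 24.8 (log2 difference 3.64, adjusted p = 0.00146). The 5 highest members held 99.6% of the members' summed Pyy level. At a mean S of at least 5 the log2 differences were -2.94 for Pyy, -1.51 for Cck and -1.55 for Nts (limma adjusted p = 0.107, 0.726 and 0.776), and at 4 that of Pyy was 2.66 (0.0759) and that of Nts 2.92 (0.0759). All 3 genes were at 0 in the 2 members of mouse 3, and with them included the log2 differences were 3.53 for Pyy (adjusted p = 0.0087), 2.06 for Cck (0.217) and 0.107 for Nts (0.97). Over those 3 mice Pyy lost its call without mouse 1 (2.50, adjusted p = 0.185) or mouse 2 (1.66, 0.883). Gip stood at 136, 0 and 0 CP10K against 13.6, 0.797 and 0.0307 and did not pass (log2 difference 0.49, adjusted p = 0.936). The remaining higher genes were Krt7 (log2 difference 4.08), Fxyd3 (3.71), Syt7 (3.66), Tceal9 (3.57) and S100a6 (2.65). With all 3 mice and without mouse 2, Fxyd3, Syt7, Tceal9 and S100a6 lost their calls (adjusted p = 0.224, 0.152, 0.47 and 0.293).

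The 7 lower genes in the posterior jejunum were goblet and enterocyte products. Without the tie of spread to level 1 of these 7 kept its call, and without the sample as block 0 did. Guanylin (Guca2a), a peptide of goblet cells and enterocytes that drives fluid secretion, stood at 3.29 and 0.292 CP10K in members of mice 1 and 2 against 23.7 and 33.6 (log2 difference -4.44, limma adjusted p = 1.48e-06). Gstm3, Fcgbp, Muc2, Fabp1, Clca1 and Zg16 had log2 differences from -3.78 to -2.72. Of 12 tested goblet genes 4 fell, with a list median of -2.52, or -2.07 with the genes at 0 in members placed at the bound that 3 counts over the members allow. Gstm3, a glutathione transferase, lost its call with all 3 mice (log2 difference -2.27, adjusted p = 0.206).

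The regions shared most of the genes that the posterior fit could call. Of 47 genes higher in anterior members 8 were also higher in posterior members (17% of the anterior and 80% of the posterior calls): Cck, Fxyd3, Krt7, Reg4, S100a6, Sct, Syt7 and Tceal9. Of 121 lower genes 6 were lower in both (4.96% and 85.7%): Clca1, Fabp1, Fcgbp, Guca2a, Muc2 and Zg16. The posterior table did not hold 19 of the 47, among them Tph1, Tac1, Afp, Gpx3, Scg5, Pcsk1n, Cpe and Slc18a1, so these have no posterior value. Of the 28 that it held, 24 had the same sign there, while 1736 of all 4911 genes of the posterior fit had a log2 difference above 0. A direct test of whether the difference between members and other cells itself differed between the regions called 0 of 5062 genes in either direction (0.0%; limma, 228 at an unadjusted p under 0.05), with 3 anterior and 2 posterior mice.

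Members were then compared between the regions over genes in both tables, with levels per 10000 UMIs of those shared genes and without the 2 members of posterior mouse 3 in the fit. Of 4506 genes 3 were higher in anterior members (0.0666%) and 1 lower (0.0222%). limma again gave all genes of 1 level the same error here. Reg1, a secreted lectin of the gut, stood at 3.01, 20.5 and 18.5 CP10K in anterior and 0.0245, 0 and 0 in posterior members (log2 difference 5.66, SE 1.04, limma adjusted p = 0.000256). Reg4 stood at 456, 535 and 410 CP10K in anterior members and 119, 195 and 189 in posterior members (log2 difference 1.6, SE 0.379, adjusted p = 0.0354). For both genes the regions did not overlap in any sample, posterior mouse 3 included. Reg1 was not a gene of the members alone: per 10000 UMIs of each region's own table it stood at 5.09, 57.2 and 39.7 CP10K in anterior other cells and 0.665, 0.337 and 2.45 in posterior other cells, and it was lower in anterior members than in other cells there (log2 difference -1.16, SE 0.355, limma adjusted p = 0.0368). The difference between members and other cells was larger in the anterior jejunum by 0.559 for Reg1 (SE 1.01, limma adjusted p = 0.996) and by 0.516 for Reg4 (SE 0.819, adjusted p = 0.996) on the log2 scale, and neither passed. Gip stood at 133, 479 and 0.874 CP10K against 137, 0 and 0 (log2 difference 2.97, adjusted p = 0.0195), and Nts at 14.1, 0.627 and 0 against 2.53, 128 and 0 (-3.81, adjusted p = 0.0437), and these values overlapped.

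None of the 4 calls held in every fit. With mouse as the replicate block, which pairs the regions of 1 animal, no gene passed, and Reg1 had an adjusted p of 0.466 with a log2 difference of 5.26. Without anterior mouse 1, 2 or 3 the fit called 2, 0 or 1 genes higher, without posterior mouse 1 or 2 it called 0, and none of these fits called a gene lower. Without posterior mouse 2 the Gip difference turned to -1.75. With posterior mouse 3 included, 6 of 4464 genes were higher (0.134%) and 1 lower (0.0224%).

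**Figure D5:**
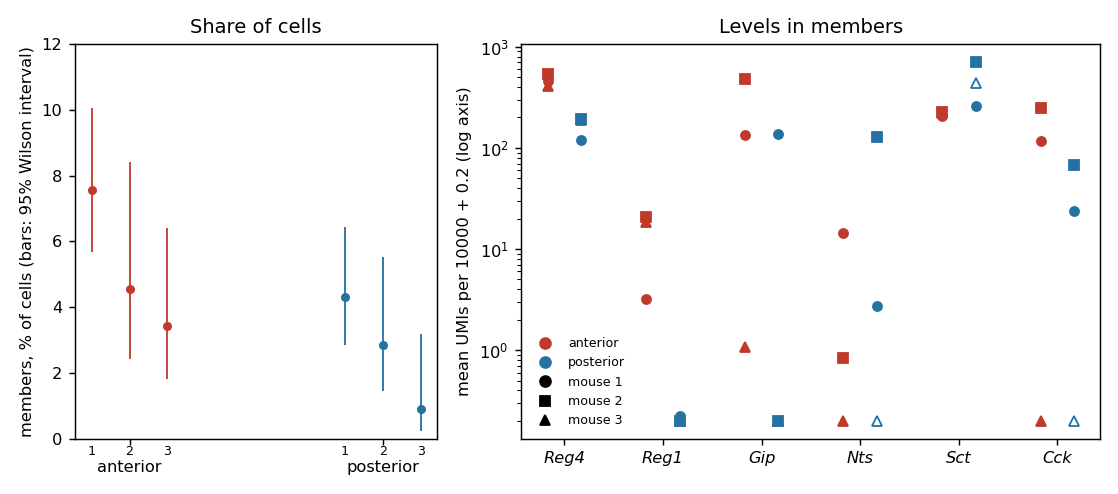
Share of members among cells per sample (percent, with 95% Wilson intervals) and mean levels in members (CP10K) of Reg4, Reg1, Gip, Nts, Sct and Cck by region, 1 symbol per mouse and an open triangle for posterior mouse 3. Anterior shares lie above the posterior share of the same mouse, and the levels of Reg4 and Reg1 do not overlap between regions.

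Members made up 7.57% of cells in anterior mouse 1 (95% Wilson interval 5.669 to 10.04), 4.545% in mouse 2 (2.41 to 8.412) and 3.435% in mouse 3 (1.818 to 6.398). In the posterior jejunum they made up 4.305% (2.86 to 6.432), 2.857% (1.455 to 5.536) and 0.8929% (0.2452 to 3.196). The share was higher in the anterior jejunum in each of the 3 mice, but the regions overlapped. The means were 5.18% ± 2.14 and 2.69% ± 1.71 (SD, n = 3 each), a difference of 2.5 percentage points (exact two-sided permutation p = 0.2, where 0.1 is the smallest that 3 against 3 allows). An exact two-sided sign-flip permutation test over the mice gave p = 0.25, the smallest that 3 mice allow. The difference moved with the setting: it was 5.36 points at a mean S of at least 2 (exact permutation p = 0.1) and 1.36 at 4 (0.4), 1.31 without anterior mouse 1 (0.4), 1.6 without posterior mouse 3 (0.4) and 1.81 in cells of at least 2000 UMIs (0.5). Plates of 1 sample varied as well, with 7.205% and 8.145% on the plates of anterior mouse 1 and 5.357%, 5.682% and 1.796% on those of posterior mouse 1. The deposited cell names also carry the label pos or neg, for a sort marker that the labels do not name. Of the members 47 were pos and 46 neg, and their share differed by -0.353 ± 1.69 percentage points (pos minus neg, SD, n = 6 samples; exact sign-flip permutation p = 0.65625), with the higher share in pos in 2 of 6 samples.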

How the data were processed

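Single EpCAM+ epithelial cells of the anterior and posterior jejunum of 3 mice were profiled by MARS-seq, which counts unique molecular identifiers (UMIs). Per the submitters' processing notes, cutadapt 1.18, STAR 2.6.1b, UMI-tools 1.0.0 and R 3.5.1 were used with GRCm38 (mm10). The authors deposited 1 table of log2 values per region. Tested on the values, each is log2(UMIs divided by a cell's size factor, plus 1) less a linear correction, and undoing both returned whole UMIs for 100.0% of values (tolerance 0.01), 6675215 UMIs in the anterior and 6573443 in the posterior table. The cells were those the authors kept, no doublet caller was run, 0 cells had identical values, and 192 well barcodes were used again in 18 amplification pools, so a cell is named by pool and well. The unit proved to hold recoverable counts per cell, and samples, not cells, were tested: CP10K was averaged over the cells of a class and sample, 0.2 was added, and log2 values of genes averaging at least 0.2 were fitted with limma 3.58.1 (R 4.3.3; eBayes with trend, sample as block, Benjamini-Hochberg over all genes). Samples with fewer than 3 members were left out. Other values came from Python 3.11.15 with numpy 2.4.6, scipy 1.17.1 and pandas 2.3.3, and all intervals are 95% Wilson intervals for counting error.

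The tests were also run on simulated members, drawn from the mean profile of the other cells of their sample at the members' depths. Spread was drawn for each gene alone, and only genes within a narrow range of levels were changed. The anterior test called 47 of 50 genes raised 4-fold and 34 of 50 lowered 4-fold (posterior 48 and 27). Of the unchanged genes 0 were called higher and 10 lower (posterior 0 and 4). Their median log2 difference was -0.237 (posterior -0.203), against -0.353 and -0.415 over all genes of the real fits. Real members were less even for genes such as Sst and Gip, so these counts do not carry over to those or rarer genes. The text names genes of the gene lists and the 15 highest and 10 lowest calls of each region's contrast, and up to 5 per direction in other fits; the Reg4 split and the single cells were chosen after their values were seen. Members and lists were chosen with earlier results of these data known. Both regions came from each mouse, and deviations of the same mouse from the region means correlated at 0.124, 0.0129 and 0.0131 over 1964 genes. Alternatives changed the gate, pseudocount, filter, reference, averaging, block and samples. The goblet-type and absorptive-type references, used in alternatives, were gated as the members were.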

Additional observations from a re-analysis of the deposited data

How the results depend on the processing

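The tests of the report rest on few members, with 9 or fewer in 4 of 6 samples and 2 in posterior mouse 3, so low genes were read from few molecules and a missing call does not show that levels were alike. Of 799 values of 54 named genes under the alternatives of the anterior contrast, 626 kept their direction and side of the threshold, 159 lost the call, 4 gained it and 10 reversed; for 560 values of 38 genes in the posterior contrast these were 450, 64, 40 and 6, and for 56 values of 4 genes between regions 23, 32, 0 and 1.

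The 47 higher and 121 lower anterior genes became 103 and 231 with UMIs summed over cells, and 26 and 18 with a filter of 1 CP10K. Higher genes numbered 26 and lower 13 without the tie of spread to level, and 25 to 40 and 23 to 32 with each mouse left out. Lower genes alone moved to 24 against goblet-type cells, 50, 284 and 278 at a mean S of at least 2, 4 and 5, 534 with no filter and 48 with a pseudocount of 1. The 10 higher and 7 lower posterior genes became 16 and 322 with all 3 mice, 6 to 28 and 190 to 783 with mouse 1 or 2 of those left out, 28 and 61 with summed UMIs, 23 and 206 with a pseudocount of 0.05, and 5 and 2 without the tie of spread to level. Lower posterior genes alone moved to 14 against goblet-type cells and to 3 and 4 at a mean S of at least 4 and 5. Leaving out a mouse of the 2 in the posterior fit left 1 sample and could not be fitted.

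Without the sample as replicate block, 19 higher and 0 lower genes remained in the anterior contrast and 0 and 0 in the posterior one. Between regions the 3 higher and 1 lower genes became 0 and 0 with mouse as replicate block, and 6 higher with posterior mouse 3 included, with or without that block. They became 5 higher with a pseudocount of 0.05, 1 and 0 with a pseudocount of 1, 0 and 0 without the tie of spread to level, and 5 lower with summed UMIs. With each sample left out they were 0 to 2 and 0. The difference of the contrasts called 1 gene lower with summed UMIs. The pairing by mouse changed the share of members by region to an exact sign-flip p of 0.25, the smallest that 3 mice allow, with the same difference of 2.5 points, and with it the difference of the contrasts again called 0 genes.

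Members with 2 or more hormone genes made up 85.25% in the anterior and 53.12% in the posterior jejunum at 1 UMI, 36.07% in the anterior at 50 CP10K, 8.197% and 6.25% at 200 CP10K, 81.13% in the anterior after thinning to 1000 UMIs, 56.03% in the anterior at a mean S of at least 2, and 87.8% and 13.04% at a mean S of at least 4.

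Directions turned for the peptide genes held by few cells. In the anterior contrast the log2 difference of Gip became -1.83 and -2.88 at a mean S of at least 4 and 5, that of Sst -3.98 and -3.9, and at 5 that of Cck -1.45 and Scg2 -0.312. Nts became 2.45 and Ghrl 1.21 at a mean S of at least 2, and Ghrl 0.331 against absorptive-type and 0.0295 against goblet-type cells. In the posterior contrast Pyy became -2.94, Cck -1.51 and Nts -1.55 at a mean S of at least 5. With all 3 mice but mouse 1, Nts became -1.16 and Gip -1.26, and without mouse 2 Nts became -2.16. Gip between regions ran from -1.75 to 7.68 with each sample left out, the lowest without posterior mouse 2. The fits with posterior mouse 3, with a mean S of at least 5 or without the tie of spread to level, and the 200 CP10K level, were chosen after seeing the data. The cause of these moves was not tested.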
